A study of Mus musculus with 3 samples.

Results

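Setd1a occupancy was examined at 9 genes of the basic helix-loop-helix (bHLH) class, namely the E protein genes *Tcf3*, *Tcf4* and *Tcf12*, the Id factor genes *Id1*, *Id2*, *Id3* and *Id4*, and the Olig factor genes *Olig1* and *Olig2*. The rule names them by gene and uses no measured value, but they were chosen with earlier results of these data known and are not whole families, since *Olig3*, which had no promoter peak, is not among them. They are 9 of the 21938 protein-coding genes that GENCODE M21 annotates on the mm10 chromosomes. Peaks were assigned to a gene if they came to within 3000 bp of the start site (TSS) of one of its annotated transcripts, measured from the nearer peak edge, or if they overlapped the gene body. By this rule, 13 of the 6969 listed Setd1a peaks belonged to the 9 genes. All 9 genes had at least 1 peak in the promoter window, whereas 5036 of the 21938 protein-coding genes, or 23.0%, had one (95% Wilson confidence interval 22.4% to 23.5%, which covers counting error over genes only).

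The peaks came from a CUT & RUN experiment, in which an antibody directs a nuclease to cut DNA beside a bound protein in permeabilized cells. Setd1a is a histone methyltransferase that marks lysine 4 of histone H3. The cells were adult neural stem cells (NSCs) that the labels trace to the dentate gyrus of mice aged 7 to 8 weeks, with the genotype Hopx-CreERT2::Setd1afl/fl::H2B-GFP. The labels call all 3 libraries WT and give the same mice for each, so the floxed *Setd1a* alleles, the Cre driven from *Hopx* and the reporter were shared by every library and no Setd1a-deficient library was included here. The cultures were kept in quiescence medium that held BMP4 and FGF2, each at 20 ng/ml, and no EGF, and were collected at day 5. There were 2 Setd1a libraries, from independent cultures, and 1 IgG library, and the 2 Setd1a libraries were combined by the authors into 1 list of peaks. The list gives the position of each peak and neither its height nor a value per library, so the depth is unknown and no spread between replicates could be attached to any position or width. A gene without a listed peak can therefore not be told apart from a gene whose peak was missed in 1 of the 2 libraries.

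E proteins are broadly expressed bHLH transcription factors that pair with tissue-restricted bHLH factors and bind the E-box, CANNTG. Id factors have the helix-loop-helix domain but lack the basic region that contacts DNA, so they hold E proteins in pairs that cannot bind, and their genes are classical targets of BMP signaling through Smad proteins. Olig factors are bHLH proteins best known for specifying the oligodendrocyte lineage, and *Olig2* is also found in neural progenitors. In adult NSCs, BMP signaling and Id factors are known to favor quiescence, whereas proneural bHLH activators favor activation.

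The 13 peaks all lay in the promoter window, and 8 of them overlapped an annotated TSS of their gene. A peak over a TSS was found at 7 of the 9 genes, against 16.4% of protein-coding genes. The exceptions were *Tcf3* and *Olig2*, whose nearest peaks ended 77 bp and 33 bp upstream of the TSS. *Tcf12*, *Id2*, *Id4* and *Olig2* had 2 peaks each and the other 5 genes had 1. Carrying at least 2 peaks in the promoter window or gene body was a feature of 3.86% of protein-coding genes, and 2.14% had at least 2 in the promoter window. The number of annotated start sites differed widely between the families and moved with the share of genes that had a listed peak. Protein-coding genes with 1 to 3 TSSs, as all Id and Olig genes have, carried a promoter peak in 13.1% of cases, and those with 10 or more, as the 3 E protein genes have, in 44.8%. At least 2 promoter peaks, as at *Id2*, *Id4* and *Olig2*, were listed at 1.02% of the genes with 1 to 3 TSSs. The farther peaks of *Id2* and *Olig2* were 2698 bp and 1890 bp from the nearest TSS of the gene. Over all 55413 annotated genes, noncoding genes included, 11.8% had a promoter peak.

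**Figure D1:**
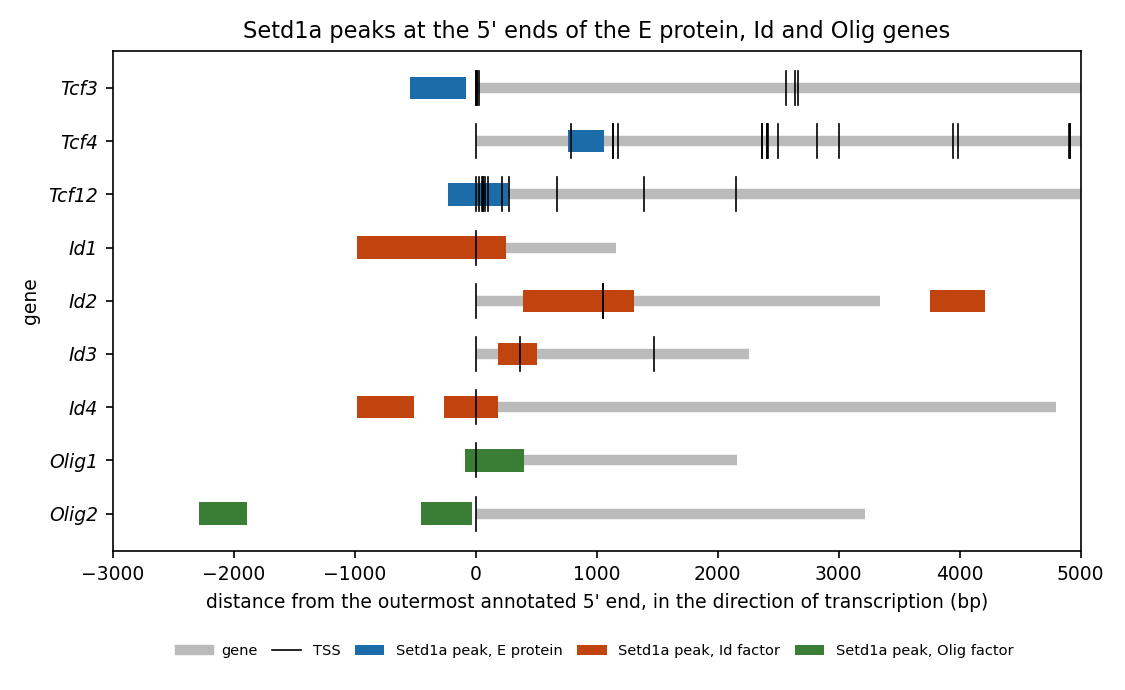
Positions of the Setd1a peaks (colored bars) at the 9 bHLH genes, in bp from the outermost annotated 5′ end along the direction of transcription; grey bars are the genes (drawn to 5000 bp at most) and black ticks the annotated TSSs. Bars cross a tick at 7 genes and stop short of the first tick at *Tcf3* and *Olig2*. The internal *Tcf12* peak lies beyond the axis.

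Of the 3 E protein genes, which together had 4 peaks of 274 to 499 bp, *Tcf12* (ENSMUSG00000032228.16, chr9:71842688-72111871, minus strand) was the only one with a peak deep inside the gene. *Tcf12* encodes the E protein HEB. Its gene spans 269.184 kb with 20 TSSs, and its outer peak, chr9:72111603-72112101, was 499 bp wide and ran from −254 to 244 bp around its nearest TSS. This peak covered 8 annotated TSSs, had a GC content of 72.1% and held 66 CpG dinucleotides. The second peak, chr9:71895867-71896140, was 274 bp wide and lay 215.731 to 216.004 kb into the gene. It was not at the 5′ end of the long transcripts but covered another 3 TSSs, which start shorter *Tcf12* transcripts, and 69 bp of coding sequence. A shorter HEB isoform with its own first exon is known from lymphoid cells. The same gene thus showed Setd1a peaks of opposite base composition, since the internal peak had a GC content of 38.7% and 1 CpG, and its GC content ranked at percentile 1.74 of all listed peaks. The stretches below show this contrast between both *Tcf12* peaks and include the *Tcf3* peak for comparison. They are mm10 sequence on the strand of the gene (minus for both genes), 5′ to 3′, with annotated untranslated regions left out and E-boxes in capitals; the internal *Tcf12* stretch starts at a coding sequence and holds no E-box, because both E-boxes of that peak lie outside the stretch.
*Tcf12* outer peak, chr9:72111894-72112093: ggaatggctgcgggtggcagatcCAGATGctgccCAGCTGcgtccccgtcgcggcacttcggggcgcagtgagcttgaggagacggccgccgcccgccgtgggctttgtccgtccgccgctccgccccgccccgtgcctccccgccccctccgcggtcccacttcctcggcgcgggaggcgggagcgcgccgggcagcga
*Tcf12* internal peak, chr9:71895867-71895998: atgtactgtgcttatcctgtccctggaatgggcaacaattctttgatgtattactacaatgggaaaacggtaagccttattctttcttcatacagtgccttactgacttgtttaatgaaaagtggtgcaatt
*Tcf3* peak, chr10:80433977-80434176: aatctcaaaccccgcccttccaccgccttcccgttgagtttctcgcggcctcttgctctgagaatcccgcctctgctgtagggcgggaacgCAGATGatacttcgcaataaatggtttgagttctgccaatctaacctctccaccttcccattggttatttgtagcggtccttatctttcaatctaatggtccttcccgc

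*Tcf3* (ENSMUSG00000020167.14, chr10:80409514-80433647, minus strand), which encodes E12 and E47, had 1 peak, chr10:80433724-80434187. This 464-bp peak ran from −540 to −77 bp of the outermost TSS, so that it covered none of the 11 annotated TSSs, although 8 of them lay within 3000 bp of it. With 28 CpGs its observed to expected CpG ratio was 0.941, at a GC content of only 50.6%. The only E-box of the peak was the CAGATG printed above, whose first base was at −438, and it had a CCAAT box, CCAAT on either strand, at −403 and at −379. The next listed peak, 9492 bp past the 3′ end of *Tcf3*, was the 1403-bp peak over the TSS of *Mbd3*, and the next upstream was 14971 bp away.

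*Tcf4* (ENSMUSG00000053477.17, chr18:69343356-69689079, plus strand) encodes E2-2 and was the longest of the 9 genes at 345.724 kb, with 62 transcripts and 58 TSSs. Only 1 peak was listed in it, chr18:69344121-69344420, 300 bp wide and 765 to 1064 bp past the outermost 5′ end. It covered 1 TSS, from −25 to 274 bp, lay within 3000 bp of 15, and had 275 of its bases in annotated untranslated exons. The remaining 43 TSSs had no peak within 3000 bp. The peak took up 0.0868% of the gene, and *Tcf4* was the most isolated of the E protein genes, with the next peaks 282.097 kb upstream and 879.232 kb downstream. The peak had a GC content of 67.0% and no E-box.

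**Figure D2:**
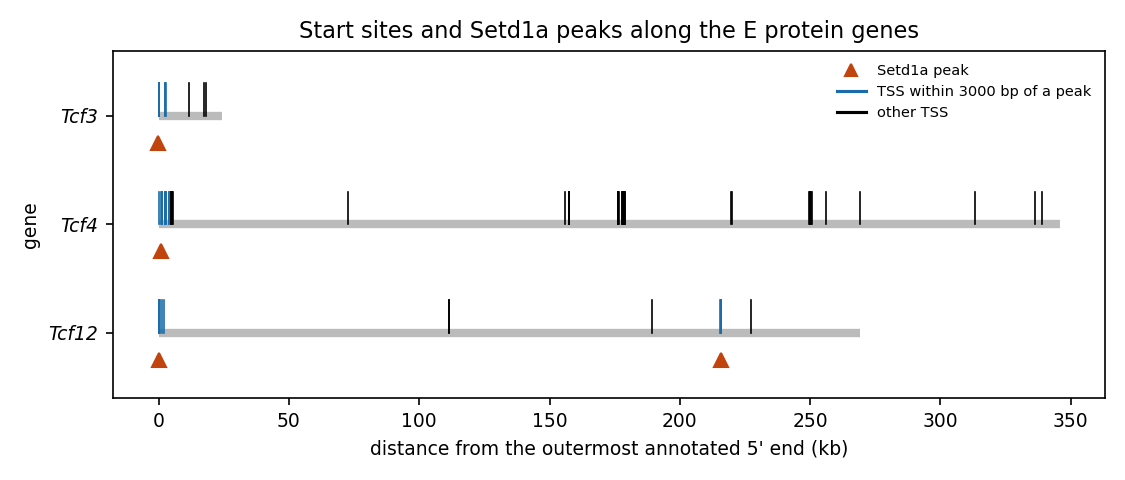
Annotated TSSs (ticks) and Setd1a peaks (triangles, at the middle of each peak) along the 3 E protein genes (grey bars), in kb from the outermost 5′ end. Blue ticks are TSSs within 3000 bp of a peak, 8 at *Tcf3*, 15 at *Tcf4* and 16 at *Tcf12*, and black ticks are the others; peaks sit at the 5′ ends and once within *Tcf12*.

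All 4 Id genes are short, and a Setd1a peak covered a TSS of each. Together they had 6 peaks of 329 to 1239 bp, which add up to 3868 of the 6711 bp in all 13 peaks. The widest was at *Id1* (ENSMUSG00000042745.9, chr2:152736251-152737410, plus strand), the Id gene most used as a readout of BMP signaling. Its single peak, chr2:152735266-152736504, was 1239 bp wide, which ranked at the 96.4th percentile of all listed peaks, and it was longer than the 1160-bp gene itself. The peak ran from −985 to 253 bp of the only TSS and covered 21.9% of the gene. Despite its width it was low in CpG, with a GC content of 50.3% and a CpG ratio of 0.525. A TATA box, TATAAA, lay at −29, and a second match at −448. The peak held 4 E-boxes, at −966, −869, −572 and −391. No other peak was listed within 39.045 kb upstream or 93.397 kb downstream.

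*Id2* (ENSMUSG00000020644.9, chr12:25093799-25097140, minus strand) had the second widest peak of the 9 genes. This peak, chr12:25095834-25096753, was 920 bp wide, ranked at the 89.6th percentile, and extended from −661 to 258 bp of the nearest TSS, over 2 of the 3 annotated TSSs. The other TSS is the outermost 5′ end, from which the peak lay 387 to 1306 bp downstream. A second *Id2* peak, chr12:25092929-25093389, 461 bp wide, lay past the 3′ end of the gene. It began 2698 bp from the nearest TSS and was thus the peak nearest to the limit of the promoter window on its inside. Both *Id2* peaks together covered 27.5% of the gene, all of it by the peak over the TSS. The flanking peak was poorer in CpG than the one over the TSS, with a ratio of 0.385 against 0.679.

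*Id3* (ENSMUSG00000007872.3, chr4:136143497-136145755, plus strand) had 1 peak, chr4:136143679-136144007, 329 bp wide and wholly inside the gene. It lay 182 to 510 bp past the outermost 5′ end, over 1 of 3 TSSs, and 129 of its bases were coding. In GENCODE the covered TSS starts a noncoding transcript, and the only coding transcript starts at the outermost 5′ end. Among the listed peaks outside the promoter windows of the 9 genes, the one nearest to the limit was upstream of *Id3*. This 259-bp peak, chr4:136140218-136140476, ended 3021 bp from the *Id3* TSS and had no gene body around it. A window of 5000 bp counts it to *Id3*, which would then have 2 peaks as *Id2* and *Id4* do.

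*Id4* (ENSMUSG00000021379.2, chr13:48261228-48266026, plus strand), an Id factor known to keep hippocampal NSCs quiescent, had 2 peaks on either side of a short gap. The peak over its only TSS, chr13:48260962-48261412, was 451 bp wide, from −266 to 184 bp. It was dense in CpG, with 51 CpGs and an observed to expected ratio of 1.16, at the 99.6th percentile of all listed peaks. The upstream peak, chr13:48260250-48260717, was of almost the same width (468 bp, from −978 to −511 bp) but had 10 CpGs and a ratio of 0.423. Merging of peaks within 1000 bp joined these 2 peaks into 1 and joined no others of the 13. The TSSs of an antisense transcript, *A330033J07Rik*, and of a long intergenic noncoding RNA, *Gm49291*, lie 1395 bp and 1363 bp from the *Id4* TSS, so that both *Id4* peaks were also within 3000 bp of these. The region was otherwise empty, with the next peaks 1154.52 kb upstream and 207.014 kb downstream.

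The Id peaks also differed in sequence. The stretches below were taken as near the middle of each peak as annotated untranslated regions allowed and are shown for this difference, in mm10 on the strand of each gene, 5′ to 3′, with E-boxes in capitals. The *Id1* stretch has a GC content of 43.5%, the *Id4* stretch over the TSS has 79.2%, and the *Id3* stretch is the start of its coding sequence.
*Id1* peak, chr2:152735785-152735984: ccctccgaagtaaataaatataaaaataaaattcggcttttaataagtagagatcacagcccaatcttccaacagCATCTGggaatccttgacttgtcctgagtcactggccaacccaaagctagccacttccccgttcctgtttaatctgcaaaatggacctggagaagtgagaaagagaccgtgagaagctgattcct
*Id2* TSS peak, chr12:25096254-25096453: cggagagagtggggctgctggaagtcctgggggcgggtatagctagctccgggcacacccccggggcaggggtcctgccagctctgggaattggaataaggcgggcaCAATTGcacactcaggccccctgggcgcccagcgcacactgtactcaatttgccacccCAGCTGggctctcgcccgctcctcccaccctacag
*Id2* 3′ flank peak, chr12:25093059-25093258: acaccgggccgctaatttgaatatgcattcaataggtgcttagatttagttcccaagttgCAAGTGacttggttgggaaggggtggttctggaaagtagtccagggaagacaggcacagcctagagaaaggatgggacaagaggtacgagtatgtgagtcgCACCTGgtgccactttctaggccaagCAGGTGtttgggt
*Id3* peak, chr4:136143879-136144007: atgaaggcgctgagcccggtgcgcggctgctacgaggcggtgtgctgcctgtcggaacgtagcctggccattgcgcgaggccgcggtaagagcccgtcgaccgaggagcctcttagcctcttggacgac
*Id4* upstream peak, chr13:48260383-48260582: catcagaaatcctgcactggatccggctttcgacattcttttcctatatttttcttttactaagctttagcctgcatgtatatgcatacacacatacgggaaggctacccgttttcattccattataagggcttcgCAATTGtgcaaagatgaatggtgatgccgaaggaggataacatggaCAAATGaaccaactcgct
*Id4* TSS peak, chr13:48260962-48261115: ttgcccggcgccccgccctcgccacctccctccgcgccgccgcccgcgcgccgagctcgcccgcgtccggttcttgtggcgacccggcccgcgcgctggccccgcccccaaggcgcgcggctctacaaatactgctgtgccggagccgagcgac
Neither the *Id3* peak nor the *Id4* TSS peak held an E-box over its whole length, whereas the 3′ flank peak of *Id2* held 3, at 2889, 2990 and 3016 bp past the nearest TSS. The upstream peak of *Id4* also held 3.

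The Olig genes lie side by side on chromosome 16, both on the plus strand, and were the densest neighborhood of Setd1a peaks among the 9 genes. *Olig1* (ENSMUSG00000046160.6, chr16:91269772-91271933) had 1 peak, chr16:91269684-91270171, 488 bp wide, from −88 to 399 bp of its only TSS. Of this peak 295 bp were coding, and its GC content was 68.9%. *Olig2* (ENSMUSG00000039830.9, chr16:91225457-91228677) had 2 peaks that both stopped short of the gene. The nearer, chr16:91225001-91225424, was 424 bp wide and ran from −456 to −33 bp. The farther, chr16:91223174-91223567, was 394 bp wide and ran from −2283 to −1890 bp, and its nearest annotated TSS was that of *Gm49614*, an unconfirmed transcript, at 248 bp. The *Olig2* peaks had nearly equal GC contents, 58.3% and 58.4%, with CpG ratios of 0.699 and 0.566. They are shown here because both *Olig2* peaks lie outside the transcribed gene; the mm10 sequence is given on the plus strand, 5′ to 3′, with E-boxes in capitals.
*Olig2* upstream peak, chr16:91223270-91223469: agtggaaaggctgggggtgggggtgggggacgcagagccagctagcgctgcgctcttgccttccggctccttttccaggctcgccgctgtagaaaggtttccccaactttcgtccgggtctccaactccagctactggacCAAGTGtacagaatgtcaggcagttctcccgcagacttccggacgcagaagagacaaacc
*Olig2* promoter peak, chr16:91225112-91225311: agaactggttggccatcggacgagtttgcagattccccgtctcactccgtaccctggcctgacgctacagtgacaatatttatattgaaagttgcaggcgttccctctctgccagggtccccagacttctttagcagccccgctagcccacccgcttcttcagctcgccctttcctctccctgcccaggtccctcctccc

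Within 100 kb of each Olig gene, 7 peaks were listed, or 34.4 peaks per Mb around *Olig2*, against 2.55 peaks per Mb over all chromosomes. The count around the genes includes their own peaks, and no value around other genes with a peak was computed. The 7 peaks were the same for both genes. Beside the 3 peaks already described, a 955-bp peak, chr16:91191101-91192055, lay 33402 bp upstream of *Olig2* and outside any annotated gene. The other 3 were 323, 358 and 282 bp wide and lay 8668, 32274 and 42393 bp past the 3′ end of *Olig1*, all inside the noncoding gene *Gm15966*. These 4 peaks had observed to expected CpG ratios of 0.165 to 0.337. The neighborhoods of the other genes held between 1 peak, at *Tcf4*, and 6 peaks, at *Tcf3*, or 1.83 and 26.8 peaks per Mb.

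**Figure D3:**
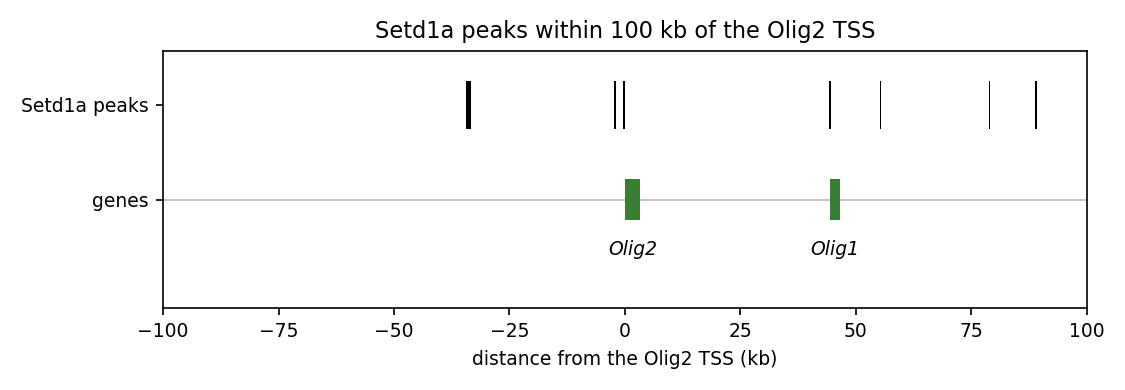
Setd1a peaks (black bars) and the *Olig2* and *Olig1* genes (green bars) in the 100 kb to each side of the *Olig2* TSS, in kb; noncoding genes are not drawn. Of the 7 peaks, 2 lie just before *Olig2*, 1 at the start of *Olig1*, and 4 away from both genes.

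Width is the only measure of size that the list gives. The 13 peaks had a median width of 461 bp, against 465 bp (quartiles 329 and 688 bp) for all peaks and 508 bp for all peaks within 3000 bp of a TSS. Of the 13 peaks, 5 were wider than the median of all peaks. Only *Id1* and the *Id2* TSS peak exceeded the promoter median, and 11 peaks were below it. By family, the medians were 382 bp over 4 E protein peaks, 464.5 bp over 6 Id peaks and 424 bp over 3 Olig peaks, and the ranges of the families overlapped. Depth and the settings of peak calling also bear on width, and their part was not tested.

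**Figure D4:**
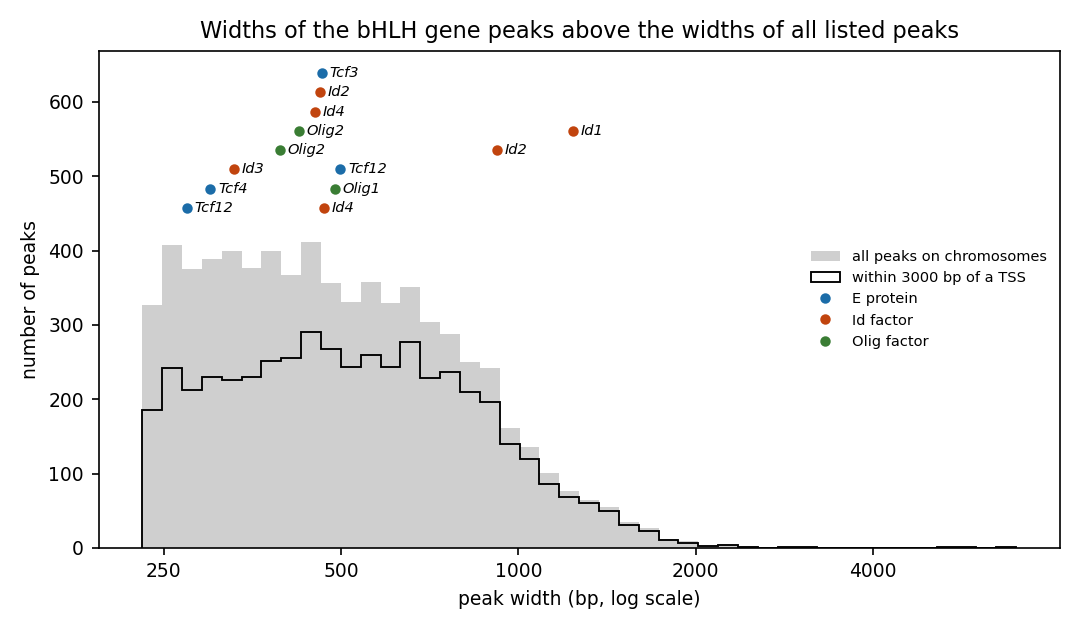
Number of peaks by width (bp, log axis) for all listed peaks on chromosomes (grey) and for those within 3000 bp of a TSS (line); the dots above, placed at arbitrary heights, are the 13 peaks of the bHLH genes at their widths of 274 to 1239 bp. *Id1* and 1 *Id2* peak lie in the upper tail.

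In base composition, the peaks of the 9 genes spanned both kinds of listed peaks. The observed to expected CpG ratio compares the number of CpG dinucleotides with that given by the C and G content, and a high ratio marks CpG island sequence. Promoter peaks had a median ratio of 0.791 and a median GC content of 62.2%, whereas peaks away from TSSs had medians of 0.200 and 49.2%. The 13 peaks had medians of 0.699 and 58.4%. Of them, 9 were below the promoter median of GC content and 8 below that of the CpG ratio. Those with a ratio above the promoter median were the peaks at *Tcf3*, *Id3*, *Olig1*, the outer *Tcf12* peak and the *Id4* TSS peak. Ratios below the lower quartile of promoter peaks, 0.623, were found at the internal *Tcf12* peak (0.0984), the flanking *Id2* peak (0.385), the upstream *Id4* peak (0.423), the *Id1* peak (0.525) and the upstream *Olig2* peak (0.566).

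**Figure D5:**
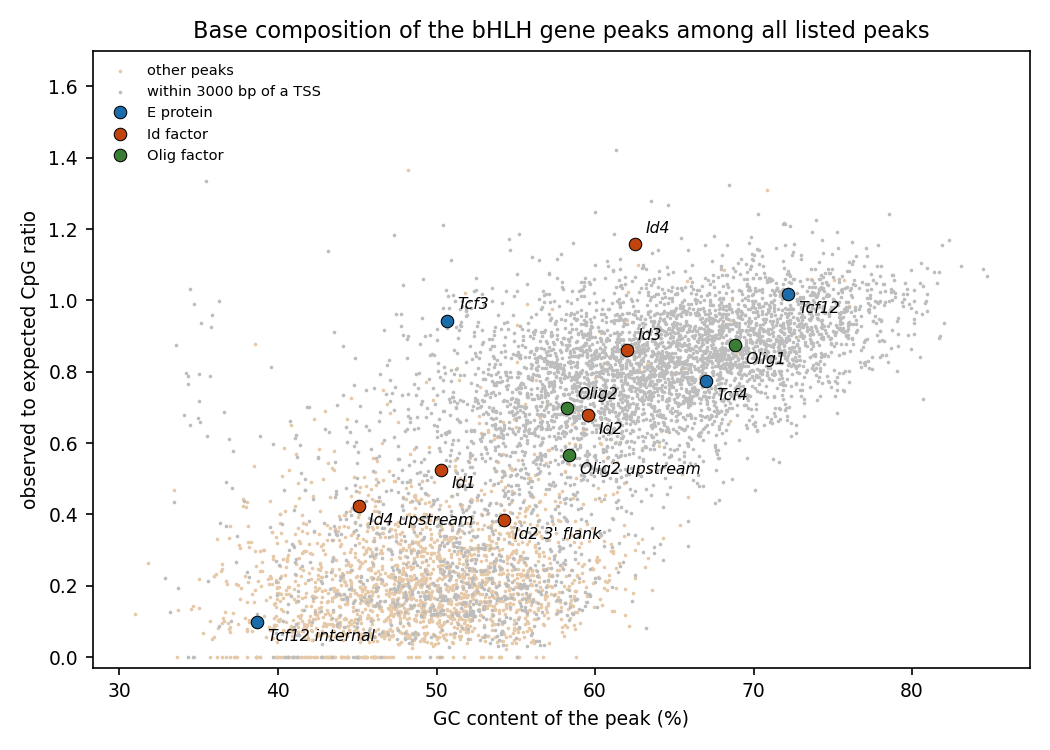
Observed to expected CpG ratio against GC content (%) of each peak, for listed peaks within 3000 bp of a TSS (grey), other listed peaks (tan) and the 13 bHLH gene peaks (large dots, by family). *Tcf12* has the peaks of highest and lowest GC content among the 13, 72.1% and 38.7%, and the *Id4* peaks have ratios of 1.16 and 0.423.

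E-boxes, the sites that E proteins bind and that Id factors keep them from, were searched as CANNTG in the 300 bp around the middle of each peak, on both strands. They were in 9 of the 13 windows, against 67.4% of all peaks and 60.5% of promoter peaks. CAGCTG, a form that many neural bHLH factors bind, was in 2 windows (17.7% of all peaks). CACCTG on either strand was in 2 (17.2%) and CAGATG on either strand in 3 (15.3%). The palindrome CACGTG was in none (7.39% of all peaks), and neither was CATATG (2.32%). These forms are contained in CANNTG and are not counted beside it. Over their whole length, 10 of the 13 peaks had an E-box, and those of *Tcf4* and *Id3* and the TSS peak of *Id4* had none. The E-box was thus about as common at these genes as in peaks at large, and a match of 6 letters does not show that a factor binds.

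Among core promoter motifs, the GC box GGGCGG was in 7 of 13 windows (44.8% of all peaks, 60.0% of promoter peaks), with 6 copies in the outer *Tcf12* window. The CCAAT box was in 4 (33.2% of all peaks), with 4 copies in the *Id2* TSS window. TATAAA was in 2, at *Id1* and at the nearer *Olig2* peak, against 6.06% of all peaks. The counted matches began at −448 bp at *Id1* and at −267 bp at *Olig2*. The *Olig2* match read TTTATA on the strand of the gene, so that TATAAA was on the opposite strand. The *Id1* match at −29 lay outside the window. The cyclic AMP response element TGACGTCA was in none (2.07%). All of these were searched on both strands.

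Because the cultures were held in BMP4, the letters of BMP-responsive Smad sites were also searched. Smad1 and Smad5 are known to favor GGCGCC, and Smad4 the CAGAC box, whose complement is GTCTG. The palindrome GGCGCC was in 5 of 13 windows, against 18.1% of all peaks and 24.0% of promoter peaks. CAGAC was in 4 of 13 windows, against 49.0% of all peaks. Over their whole length, the *Id1* peak held 2 CAGAC boxes and the *Id2* TSS peak held 3, all outside the windows. Within 5000 bp of the outermost 5′ end, *Id3* had 9 GGCGCC sites and *Id2* had 8, yet none of the 9 sites at *Id3* was inside a listed peak. At *Id1*, the only upstream site was centered at −1097 bp, 109 bp beyond the edge of the 1239-bp peak. At *Tcf3* the nearest site was 15 bp beyond the edge of its peak. The sites inside a peak were 1 at *Tcf4*, which began 166 bp past its nearest TSS, 2 at *Id2*, 1 at *Id4*, 2 at *Olig1* and 1 at *Olig2*. The 40-bp stretches below show 1 site of each of 4 genes, with GGCGCC in capitals, in mm10 on the strand of the gene, 5′ to 3′; the first lies outside the *Id1* peak and the others lie in the peak over or next to the TSS.
*Id1*, outside the peak, chr2:152735135-152735174: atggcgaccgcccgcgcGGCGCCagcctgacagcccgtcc
*Id2*, TSS peak, chr12:25096301-25096340: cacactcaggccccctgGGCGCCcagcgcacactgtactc
*Id4*, TSS peak, chr13:48260951-48260990: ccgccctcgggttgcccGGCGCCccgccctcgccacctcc
*Olig2*, promoter peak, chr16:91225323-91225362: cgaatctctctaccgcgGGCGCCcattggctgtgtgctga

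Several GGCGCC sites of the Id genes were followed by GTCT after a fixed spacer, the arrangement known from BMP response elements, in which Smad1 or Smad5 and Smad4 sites are 5 bases apart. This composite, GGCGCC followed by 5 bases of any kind and GTCT on either strand, was searched after these stretches had been seen, and its count is a description. Within 5000 bp of the outermost 5′ end it was in 120 of 21938 protein-coding genes, or 0.547%, and 4 genes, or 0.0182%, had 2 or more matches. All 4 Id genes were among the 120, with 1 match at *Id1*, 2 at *Id2*, 3 at *Id3* and 1 at *Id4*, and *Olig1* had 1 match. *Id2* and *Id3* were 2 of the 4 genes with several. The 7 matches at the Id genes are printed to show their spacer bases, since the search itself fixed the spacing. Both boxes are in capitals, in mm10 on the strand of the gene, 5′ to 3′.
*Id1*, chr2:152739471-152739485: GGCGCCtggctGTCT
*Id2*, inside the 3′ flank peak, chr12:25093044-25093058: GGCGCCtgctaGTCT
*Id2*, upstream, chr12:25098854-25098868: GGCGCCagagaGTCT
*Id3*, upstream, chr4:136140540-136140554: GGCGCCaggctGTCT
*Id3*, within the gene, chr4:136144793-136144807: GGCGCCggccaGTCT
*Id3*, downstream, chr4:136147981-136147995: GGCGCCcggatGTCT
*Id4*, chr13:48262890-48262904: GGCGCCagttaGTCT
Of the 8 matches at the 5 genes, 1 lay inside a listed peak, in the 3′ flank peak of *Id2*. The upstream match at *Id3* was 64 bp from the 259-bp peak that fell just outside the promoter window. The other 6 were 610 to 3974 bp from the nearest listed peak. In the whole list, 15 of 6952 peaks on assembled chromosomes, or 0.216%, held the composite, 14 of them within 3000 bp of a protein-coding TSS.

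Other bHLH activators of neural development were read in the same way. Of 16 such genes, 1 had a promoter peak and is not reported here, beside 23.0% of all protein-coding genes. No promoter peak was listed at *Neurog1*, *Neurog2*, *Neurod1* or *Olig3*. *Olig3*, the relative of *Olig1* and *Olig2*, had its nearest peak 4643 bp away. The nearest peak to *Neurog2*, a driver of neuronal fate, was 79.49 kb away, and that to *Neurod1*, a gene of new granule neurons, 88.908 kb away.

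The Hes and Hey factors, bHLH proteins of which most act as repressors downstream of Notch, had promoter peaks at 3 of 8 genes, which were *Hes1*, *Hes6* and *Hey1*. *Hes1*, a repressor of proneural genes, had 2 peaks of 565 and 398 bp, and *Hes6* had 2 of 651 and 234 bp. The *Hey1* peak was 373 bp wide and covered a TSS. *Hes5*, whose nearest peak was 36.862 kb away, was without one. Among 10 partners and regulators of E and Id proteins, 3 had a promoter peak, each over a TSS. They were *Cbfa2t2*, a corepressor gene of the ETO family (731 bp), *Ldb1*, a cofactor that bridges LIM proteins and E protein complexes (712 bp), and *Usp1*, the deubiquitinase that stabilizes Id proteins (1126 bp). Their counts, 3 of 8 and 3 of 10, stand beside the 23.0% of all protein-coding genes.

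The cells were labelled neural progenitors and their expression was not measured here, so markers could only be read as peaks. Of 9 NSC marker genes 5 had a promoter peak, which were *Sox2*, *Nes*, *Gfap*, *Vim* and *Aldoc*, while *Hopx*, *Slc1a3*, *Fabp7* and *Sox9* had none. The *Aldoc* peak lay past the 3′ end of that gene, 2970 bp from a TSS of *Aldoc*, and its nearest gene was *Pigs*. None of 6 neuronal and none of 4 microglial markers had a promoter peak. These marker counts stand beside the 23.0% of all protein-coding genes with a promoter peak. Among oligodendrocyte lineage markers, which bear on *Olig1* and *Olig2*, *Pdgfra* had a promoter peak, and *Sox10*, *Cspg4*, *Mbp* and *Mog* had none. Peaks in the gene body were not counted for markers. Markers that had only such peaks were *Slc1a3* (1), *Cspg4* (1) and a microglial marker (2). A peak is not a measure of expression, and a marker gene without one may still be expressed.

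Start sites in RefSeq were also read, for the genes that could be matched. For 6 of the 9 genes a RefSeq promoter entry was found, with 8 starts in all, and all 8 lay within 3000 bp of a listed peak. At *Tcf12*, a RefSeq start lay inside the internal peak and another inside the outer peak. The RefSeq starts found for *Id2* and *Id3* lay inside a peak, whereas the outermost GENCODE 5′ ends of both genes lay outside their peaks. The *Olig2* start was 126 bp from the nearer peak, and the *Tcf3* start 89 bp from its peak.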

How the data were processed

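CUT & RUN libraries for Setd1a (2, from independent cultures) and IgG (1) were made from quiescent adult NSCs. Per the submitters' processing notes, bcl2fastq 2.17.1.14, Trimmomatic 0.32, Bowtie2 2.1.0, SAMtools 0.1.18 and MACS2 2.2.8 were used with mm10. The authors mapped unique reads, removed those of low mapping quality, called peaks with default MACS2 settings and deposited 1 list of peaks found in both Setd1a libraries. Its values are positions in bp, with no score. The use of the IgG library in peak calling is not given in the sources used here. All value columns were used and 0 were left unmatched. The depth per library is unknown.

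The 9 genes and all gene lists were chosen with earlier results of these data known, so no chance test was made and no p-value is given. The genes described are the 9 bHLH genes, fixed lists of bHLH activators, Hes and Hey genes, partners and cell type markers, and genes whose TSS lay within 3000 bp of their peaks. Some genes of these lists are not reported here. *Mbd3* and *Gm15966* were named after their positions were seen. Start coordinates were read as 1-based. Peaks were placed on GENCODE M21; the highest peak end was within the reference length for 22 of 22 chromosomes. Distances run from the nearer edge of the peak. Motifs were searched in 300 bp around each peak's middle, over the 6952 peaks on assembled chromosomes, the mitochondrial genome included. Sequences were read from mm10, and RefSeq starts from promoter entries of the same build. Python 3.11.15, numpy 2.4.6, matplotlib 3.10.9 and samtools 1.23.1 were used. On simulated data, 600 of 600 distances and 200 of 200 planted motifs were recovered. Alternatives covered the promoter window, the TSS set, the assignment, width minimum, merging and motif window.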

Additional observations from a re-analysis of the deposited data

How the results depend on the processing

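All 9 genes kept a promoter peak under every alternative except the strictest, in which a peak had to cover the TSS. Under it, 7 genes, 8 peaks at the 9 genes and 4 of the 34 genes in the pathway lists remained, and 16.4% of protein-coding genes had a peak. In the other settings the number of peaks was 11 to 14. A window of 2000 bp lost the 3′ flank peak of *Id2*, and a window of 1000 bp lost the farther *Olig2* peak as well. The share of protein-coding genes, 23.0%, was 21.4%, 22.2% and 24.5% for windows of 1000, 2000 and 5000 bp, 22.2% for TSSs of coding transcripts, 21.9% for basic transcripts, 20.9% for outermost 5′ ends, 18.2% for the nearest TSS, and 20.2% for peaks of at least 300 bp. The median width of the 13 peaks ranked at percentile 43.1 among promoter peaks and 47.3 after merging, against 49.3. An E-box was in 7, 11 and 10 of the 13 peaks in 200 bp, 500 bp and the whole peak, against 9 in 300 bp. The shares of all peaks in these settings were 54.0%, 83.3% and 81.9%, against 67.4% in 300 bp. No paired analysis was possible because both Setd1a libraries are merged into these intervals, and neither library could be left out. Depth limits what an absent peak shows.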
